A study of Mus musculus with 2 samples.

Results

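The 40 genes described here encode the machinery with which a cell separates its chromosomes and divides: cyclins and the kinase Cdk1, mitotic kinases and checkpoint proteins, the chromosomal passenger complex, kinetochore proteins, spindle proteins and motors, and proteins of the cleavage furrow. They were taken by symbol from a given list, not by a threshold on their values, though with earlier results of these data known. Each was matched among the 31053 genes of the count tables, with at least 907 UMIs (unique molecular identifiers, counted RNA molecules) in both libraries. RNA had been read in LSK cells, a sort gate for lineage-low or -negative, Sca1+ and c-Kit high cells that holds blood stem cells and multipotent progenitors. The cells came from the bone marrow (1 library, 10088 cells) and the spleen (1 library, 6546 cells) of C57BL/6 mice with a liver tumour, for which cells of the mouse hepatoma line Hepa1-6 had been placed in the left lobe of the liver at 6 to 8 weeks of age. Both groups therefore carried a tumour, and how many mice were pooled per library is not given in the sources used here. With 1 library per tissue there is no replicate and no test: intervals are exact 95% intervals, cover counting error only, and say nothing of the spread between mice.

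The libraries held 73740963 UMIs (bone marrow, median 5991 per cell) and 85937174 UMIs (spleen, median 9978), and 16 cell barcodes occurred in both, 0.244% of the spleen cells. By reference labels and marker RNA, many spleen cells resembled cells of other lineages. These data hold no surface protein values, so the match to the gate was not tested. Reference labels in the deposited cell table named another lineage (dendritic, T, NK, B, mast, basophil, macrophage and similar) for 53.9% of spleen cells and 1.20% of bone marrow cells. The 5 stem cell markers Hlf, Mecom, Procr, Mllt3 and Meis1 summed to 863 CPM (UMIs per 1000000 UMIs of the sum) in bone marrow and 223 CPM in spleen, with 4 of 5 lower. The 5 dendritic cell markers summed to 711 and 15441 CPM, the 5 mast cell or basophil markers to 23.0 and 729 CPM, and the 5 erythroid markers to 163 and 1365 CPM. Sums and counts of genes are therefore also given without the cells under another lineage's label, and single genes where their call or side changed.

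Mitosis is driven by Cdk1 bound to cyclins A and B, which accumulate before division and are then destroyed by the anaphase-promoting complex (APC/C), a ubiquitin ligase that Cdc20 activates. Most of these genes are transcribed late in the cell cycle, under the MuvB complex, B-Myb and FoxM1, through a promoter element called the CHR and through CCAAT boxes bound by NF-Y. Most stem cells of the adult marrow are quiescent, while committed progenitors, erythroid progenitors above all, divide often. The RNA of most of these genes in a mixed sample therefore depends in large part on how many of its cells are dividing.

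The promoters of 33 of the 40 genes were found in the RefSeq table (GRCm38.p6, 250 bases before to 50 after the start), and they were searched on both strands for the CHR as TTTGAA and for the CCAAT box as CCAAT. A CHR was present in 25 of 33 (75.8%) against 17.9% of all 32851 promoters of that length, a CCAAT box in 27 of 33 (81.8%) against 37.4%, and both in 22 of 33 (66.7%) against 6.95%. CCAAT boxes 31 to 34 bases apart occurred in 10 of 33 (30.3%) against 1.20% of all promoters, and a CHR within 50 bases of the start in 21 of 33 (63.6%) against 4.94%. A CHR overlapped a CCAAT box in 1 of 33. A match describes letters, not a bound site. The 100 bases before the start are shown for 6 genes, with matches in capitals (ATTGG and TTCAAA are the same motifs on the other strand). They run from promoters rich in the motifs to one with none.
Cdk1: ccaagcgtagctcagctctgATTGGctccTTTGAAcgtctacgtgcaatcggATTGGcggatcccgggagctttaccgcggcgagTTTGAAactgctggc
Ccnb2: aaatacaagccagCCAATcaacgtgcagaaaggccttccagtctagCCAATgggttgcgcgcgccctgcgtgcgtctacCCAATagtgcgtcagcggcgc
Cdc20: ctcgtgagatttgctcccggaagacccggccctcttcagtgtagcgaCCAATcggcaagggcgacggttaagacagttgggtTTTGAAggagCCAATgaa
Ube2c: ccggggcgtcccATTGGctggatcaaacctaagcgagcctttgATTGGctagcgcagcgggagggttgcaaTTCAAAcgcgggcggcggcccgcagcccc
Cdc25b: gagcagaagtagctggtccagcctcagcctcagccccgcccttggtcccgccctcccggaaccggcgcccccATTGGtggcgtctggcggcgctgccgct
Nusap1: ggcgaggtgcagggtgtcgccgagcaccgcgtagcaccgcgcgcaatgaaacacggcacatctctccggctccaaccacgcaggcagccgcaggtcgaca

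These windows lie at chr10:69352913-69353012 (Cdk1, minus strand), chr9:70421555-70421654 (Ccnb2, minus), chr4:118437344-118437443 (Cdc20, minus), chr2:164769829-164769928 (Ube2c, plus), chr2:131186848-131186947 (Cdc25b, plus) and chr2:119618198-119618297 (Nusap1, plus). The CCAAT boxes of the Ccnb2 window stood 33 and 33 bases apart, those of Cdk1 32 and those of Ube2c 31, while the pair in Cdc20 stood 45 apart. In these windows Cdc25b, whose ratio over all cells of clusters MEP and LP below ran against most of the set, had 1 CCAAT box. Nusap1, among the 3 lowest ratios in HSC-1, MP and LP, had no match. Ube2c, among the 3 highest in all clusters compared but LP, had 2 CCAAT boxes and 1 CHR. Other genes did not follow this contrast. Kif11, among the 3 lowest in HSC-1, HSC-2, HSC-3 and LP, had 1 CHR and 1 CCAAT box in the whole 300 bases. Prc1, among the 3 lowest in HSC-1 and DCP, had the same counts. Ccnb1, among the 3 highest in HSC-3 and MEP, had 2 CCAAT boxes and no CHR. Of members that followed the set least across clusters, Kif23 had 1 CHR and 1 CCAAT box in the whole 300 bases, and Cdkn3 1 and 4. Whether the motifs go with the RNA values was not tested. Birc5, Knstrn and Nusap1 had neither motif in the whole 300 bases.

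Over all cells the set as a whole was close in the 2 tissues. The 40 genes summed to 3131 CPM in bone marrow (3119 to 3144) and 3502 CPM in spleen (3490 to 3515), a ratio of 1.12 (1.11 to 1.12). A size rule of 1.5-fold on log2 of CPM plus 1 was used for single genes, and a gene had to average 10 CPM or more over the tissues, which 40 of 40 did. Of them 5 were higher in spleen, Ube2c, Ccnb1, Tubb4b, Plk1 and Cdkn3, and 1 was lower, Pimreg. Among all 8644 genes that passed, 10.8% were higher and 18.3% lower. The median log2 ratio of the 40 was 0.17 and that of all genes -0.11. Without other lineages' labels 6 members were higher (Ube2c, Ccnb1, Tubb4b, Plk1, Cdk1 and Cdca3) and 4 lower (Cdc25b, Cep55, Kif23 and Pimreg), where 14.4% and 23.7% of all genes were. Then 9 members changed side: Anln, Bub1b, Cdc25c, Mki67 and Prc1 lay higher in spleen and Cenpf, Dlgap5, Knstrn and Racgap1 lower. Leaving out these labels kept 881 of the 891 spleen cells of the MEP cluster. They then supplied 144584 of the 200010 spleen member UMIs, so all-cell values without other lineages' labels weigh MEP more. The direction of the sum depended on how cells were weighted: with each cell counted alike the ratio was 0.92 and 2 members were higher, Ube2c and Cdkn3; 16 members changed side, among them Cdk1, Ccna2, Cdc20, Aurkb, Cdca8, Cenpa and Cenpf, which then lay lower in spleen. Without the cells of the MEP cluster, an alternative chosen after seeing the data, the ratio was 0.90. Scaling by TMM raised the log2 ratio of the median gene by 0.21, and 7 members that were lower in spleen without it (Anln, Bub1b, Cdc25c, Cep55, Kif23, Mki67 and Prc1) then had positive log2 ratios. Of all genes 1615 were then higher and 926 lower, against 937 and 1578.

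**Figure D1:**
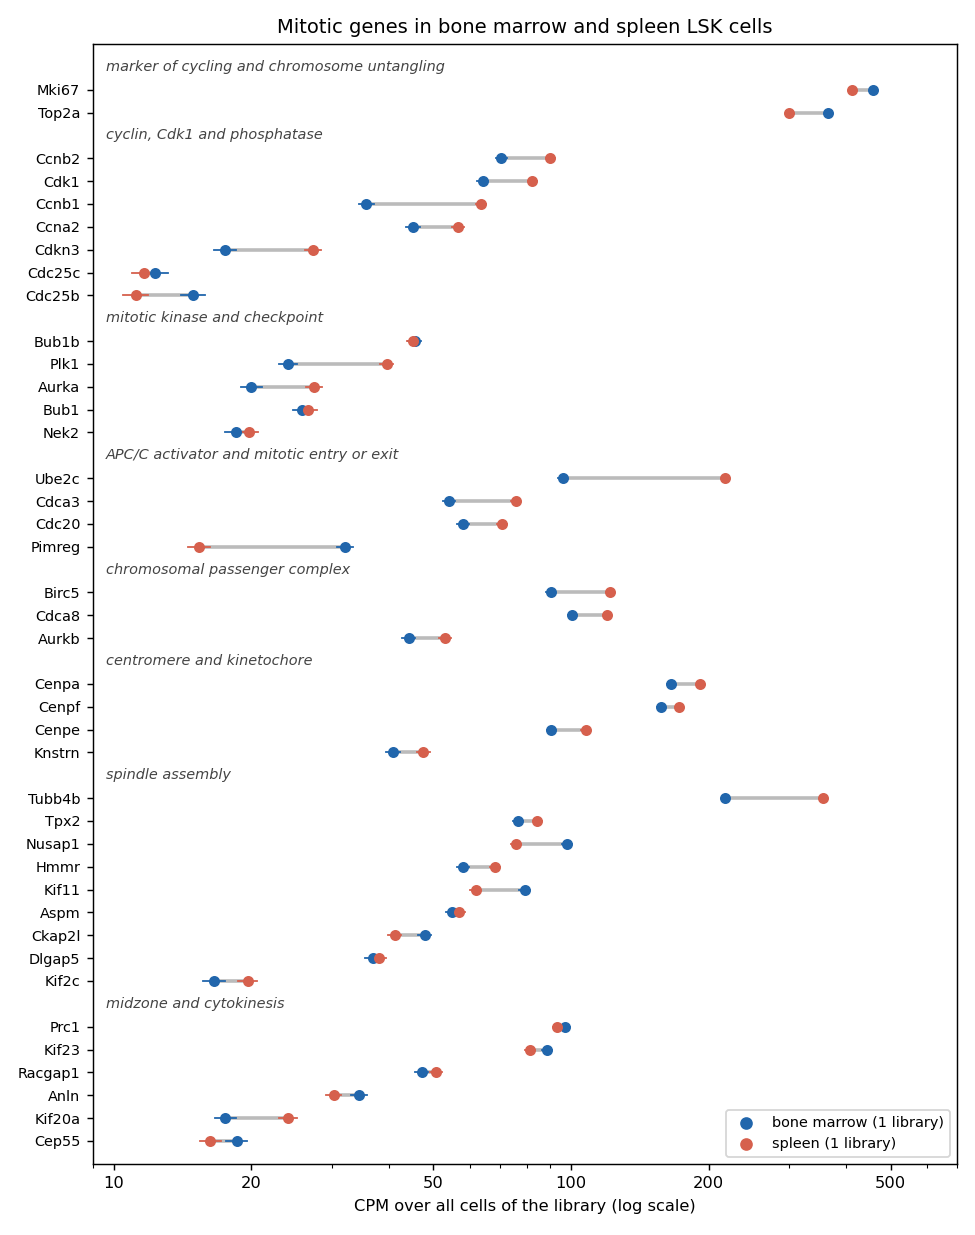
CPM of each of the 40 genes over all cells of the bone marrow library (blue) and of the spleen library (red), on a log axis, grouped by role; thin lines are exact 95% counting intervals. Ube2c shows the widest gap towards spleen (95.9 against 217.4 CPM) and Pimreg the widest towards bone marrow (32.0 against 15.4 CPM).

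The cyclin and Cdk1 group held most of its members on the spleen side. Cdk1, the kinase that starts mitosis, stood at 64.1 CPM in bone marrow and 82.3 CPM in spleen, and its partner Ccna2 at 45.2 and 56.6 CPM. Ccnb1 stood at 35.7 and 63.6 CPM, a ratio of 1.78 (1.70 to 1.87). The other B-type cyclin of the list, Ccnb2, differed less, with 70.3 and 90.1 CPM, a ratio of 1.28 (1.24 to 1.33). Cdkn3, a phosphatase that acts on Cdk1 and Cdk2, had 17.5 and 27.2 CPM (ratio 1.56, 1.45 to 1.67). Cdkn3 without other lineages' labels stood at 17.4 and 17.8 CPM, with a ratio of 1.02 (0.937 to 1.11), and Cdk1 at 64.2 and 105.05 CPM, 1.64-fold higher. The phosphatases that activate Cdk1 did not share this side. Cdc25b had 14.9 and 11.2 CPM (14.7 and 6.79 CPM without other lineages' labels), and Cdc25c 12.3 and 11.6 CPM with a counting interval that held equality (0.865 to 1.04).

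Among the kinases and checkpoint proteins, Plk1, which acts in mitotic entry and spindle assembly, had 24.1 CPM in bone marrow and 39.5 CPM in spleen (ratio 1.64, 1.55 to 1.74). Aurka, the kinase of the spindle poles, had 19.99 and 27.4 CPM. The spindle checkpoint kinase Bub1 had 25.8 and 26.6 CPM. Its relative Bub1b had 45.5 and 45.1 CPM, and Nek2, a centrosome kinase, 18.5 and 19.7 CPM. The intervals of these last 3 ratios held 1 over all cells. Without other lineages' labels that of Bub1b still did, while Bub1 had 1.20 (1.12 to 1.28) and Nek2 1.13 (1.05 to 1.23). Within clusters Bub1 differed in both directions, with a ratio of 2.22 in MEP and 0.168 in MP.

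The 4 genes grouped with the APC/C and mitotic entry and exit held both ends of the set. Ube2c is the ubiquitin-conjugating enzyme that works with the APC/C (ENSMUSG00000001403, chr2:164769898-164778822 on the plus strand of mm10). It had 7074 UMIs in bone marrow and 18685 in spleen, or 95.9 and 217.4 CPM, a ratio of 2.27 (2.20 to 2.33). Cdc20, the APC/C activator, had 58.1 and 70.8 CPM, and Cdca3, which promotes mitotic entry, 54.1 and 75.7 CPM. Pimreg, a nuclear protein that binds PICALM (ENSMUSG00000020808, chr11:72042032-72047370, plus strand), had 32.0 and 15.4 CPM and was 2.08-fold lower in spleen (1.94 to 2.23). The gene Tnnc2, which overlaps Ube2c on the opposite strand, had 4 UMIs in bone marrow and 29 in spleen. Of the 40 genes, 13 overlap a counted gene on the opposite strand and 0 on the same strand; whether strand was used in counting is not stated.

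The 3 members of the chromosomal passenger complex, which corrects chromosome attachment and guides cytokinesis, differed little and lay on the same side, where each cell counted alike put Aurkb and Cdca8 on the other. The kinase Aurkb had 44.1 CPM in bone marrow and 53.0 CPM in spleen, its partner survivin (Birc5) 90.2 and 122 CPM, and borealin (Cdca8) 101 and 120 CPM. At the centromere, the histone variant Cenpa had 165 and 192 CPM, and the motor Cenpe 90.6 and 108 CPM. Cenpf, a large kinetochore protein, had 157 and 172 CPM, and Knstrn, which links kinetochores to the spindle, 40.9 and 47.5 CPM. None of these 7 passed 1.5-fold.

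The spindle group was split. Tubb4b, a beta-tubulin that is not limited to dividing cells, had 217 CPM in bone marrow and 355 CPM in spleen (ratio 1.64, 1.60 to 1.67); without MEP cells its log2 ratio was -0.30. The coding parts of beta-tubulin genes are very alike, so its counts may hold reads of relatives. Kif11, the motor that pushes the spindle poles apart, had 79.1 and 61.9 CPM, and Nusap1, which bundles spindle microtubules, 98.0 and 75.9 CPM. Ckap2l, also of the spindle, had 47.9 and 41.2 CPM. These 3 were lower in spleen, with ratios of 0.782, 0.774 and 0.861 and intervals below 1, though none reached 1.5-fold. Tpx2, the activator of Aurka, had 76.6 and 84.3 CPM, Hmmr 58.0 and 68.2 CPM and the depolymerising kinesin Kif2c 16.6 and 19.6 CPM. Aspm, of the spindle poles, had 54.9 and 57.0 CPM, and Dlgap5 36.9 and 38.0 CPM; both intervals held 1.

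For the midzone and the cleavage furrow, Kif20a, a kinesin of cytokinesis, had 17.5 CPM in bone marrow and 24.1 CPM in spleen, and Racgap1, part of the centralspindlin complex, 47.2 and 50.6 CPM. Its centralspindlin partner Kif23 had 88.7 and 81.3 CPM, and the midzone bundler Prc1 97.1 and 93.2 CPM. Anillin (Anln) had 34.4 and 30.2 CPM, and Cep55, needed for the final cut between daughter cells, 18.6 and 16.3 CPM; these 4 lay lower in spleen here and higher under TMM scaling. Leaving out other lineages' labels, Kif23 (87.6 and 51.1 CPM, ratio 0.583) and Cep55 (18.45 and 10.6 CPM, 0.575) passed 1.5-fold lower, while Prc1 (1.14) and Anln (1.04) had ratios above 1. The general cycling marker Mki67 had 457 and 412 CPM and topoisomerase Top2a, which untangles chromosomes, 364 and 300.1 CPM, both lower in spleen. Mki67 was not lower under TMM scaling or without other lineages' labels, where it stood at 456 and 473 CPM (ratio 1.04, 1.02 to 1.05). In all, the counting interval of the ratio lay above 1 for 23 members, below 1 for 11 and held 1 for 6. The share of all genes with such intervals is not given here, so these counts show nothing particular to the set.

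The cells that supplied this RNA were not the same in the 2 tissues. The deposited table assigns cells to 8 clusters, whose names are used here as the authors wrote them; their abbreviations are not spelled out in the sources used here. The clusters were made from expression, possibly including these genes, so the level between clusters is a description. In bone marrow, HSC-3 gave 39.5% of the member UMIs and DCP 22.0%, from 12.2% and 3.75% of the cells. In spleen, MEP gave 48.3% from 13.6% of the cells, DCP 20.4% and HSC-3 17.3%. MEP gave 4.19% in bone marrow, from 3.54% of the cells.

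Within clusters the tissues parted in opposite directions. MEP was higher in spleen, with a sum of 2305 CPM in bone marrow and 4597 CPM in spleen (ratio 1.99, 1.95 to 2.04). MP was 4.64-fold lower in spleen (4.46 to 4.82), with 3248 and 700.4 CPM, and LP 1.66-fold lower (1.60 to 1.72), with 1335 and 804 CPM. The remaining clusters lay nearer to 1: HSC-1 had 1134 and 1121 CPM, HSC-2 1939 and 1490 CPM, HSC-3 6903 and 7656 CPM, and DCP 14277 and 12739 CPM. MCP had 36 bone marrow cells and was not compared.

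**Figure D2:**
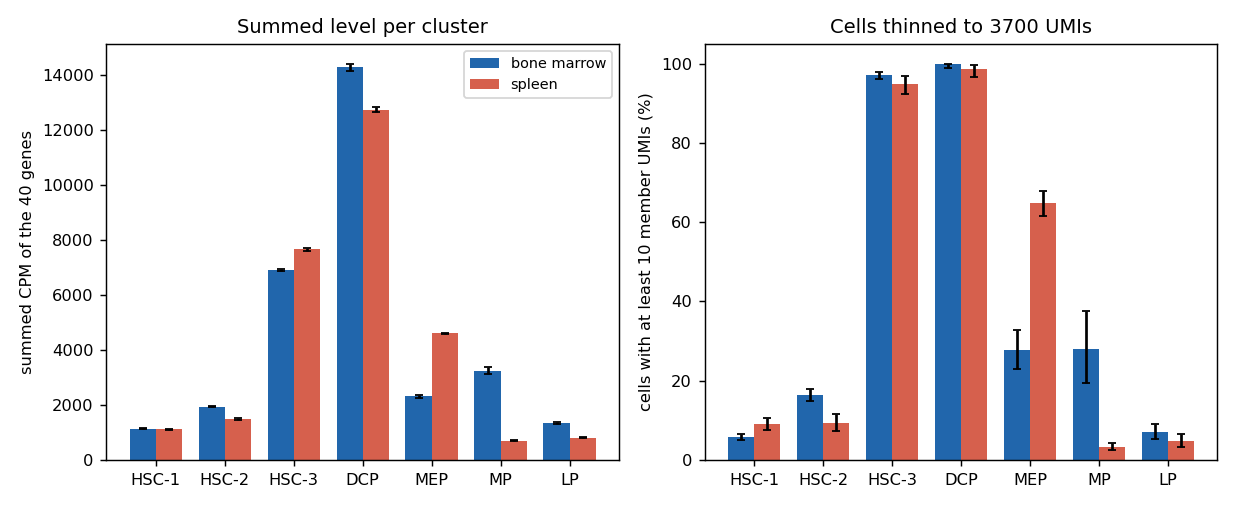
Left, summed CPM of the 40 genes in the 7 clusters compared, bone marrow in blue and spleen in red; right, percent of cells with at least 10 member UMIs after each cell was thinned to 3700 UMIs. Whiskers are exact 95% counting intervals; MEP is the cluster with the taller spleen bar in both panels by the widest margin, and MP the reverse.

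In MEP, the erythroid cluster by its markers (Car1 2255 CPM in bone marrow and 3129 CPM in spleen), 36 of the 40 genes passed the 10 CPM filter, of which 32 were higher in spleen and 0 lower. Of all genes measured there, 7.46% were higher and 13.5% lower; the median log2 ratio was 1.04 for the members and -0.02 for all genes. Ube2c led, with 67.2 CPM in bone marrow and 275 CPM in spleen (ratio 4.09, 3.63 to 4.62), then Plk1 with 16.7 and 62.2 CPM (3.73, 2.94 to 4.80) and Ccnb1 with 31.2 and 97.5 CPM (3.12, 2.62 to 3.75). Aurka stood at 12.4 and 39.1 CPM, Cdk1 at 51.7 and 134 CPM and Tubb4b at 314 and 671 CPM. By role, the APC/C and entry or exit group had the largest ratio of sums, 2.93, and the pair Mki67 and Top2a the smallest, 1.54.

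Some members differed less in MEP. Top2a (261 and 388 CPM), Bub1b (36.5 and 53.5 CPM), Dlgap5 (29.8 and 38.7 CPM) and Anln (34.5 and 43.3 CPM) were measured but under 1.5-fold. The 4 genes under the filter were Cdc25c, at 5.96 and 13.5 CPM, Cep55, at 5.24 and 7.02 CPM, Cdc25b, at 6.19 and 3.60 CPM, and Pimreg, at 3.81 and 2.28 CPM. Of the 4, Cdc25b had a ratio under 1 beyond counting error (0.377 to 0.929).

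The MEP cells of the 2 libraries also differed in depth and in stage label. Their median was 11230 UMIs per cell in bone marrow and 36084 in spleen; after thinning to equal depth the ratio was 2.17. Of MEP cells, 69.1% in spleen and 19.3% in bone marrow carried the label Ery-3 of the deposited table, while Ery-1 was carried by 10.5% and 30.0%. Within Ery-1 (107 bone marrow and 94 spleen cells) the sum was 916 and 1245 CPM, within Ery-2 (131 and 133 cells) 2388 and 3036 CPM, and within Ery-3 (69 and 616 cells) 3323 and 4913 CPM. The ratios were thus 1.36, 1.27 and 1.48, each above 1 and each under the pooled 1.99. With the 3 labels given the same weight in both libraries, an alternative chosen after seeing the data, the ratio was 1.41. Leaving out cells with another lineage's label left 1.9999, with 32 genes higher and 0 lower (7.65% and 13.7% of all genes).

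**Figure D3:**
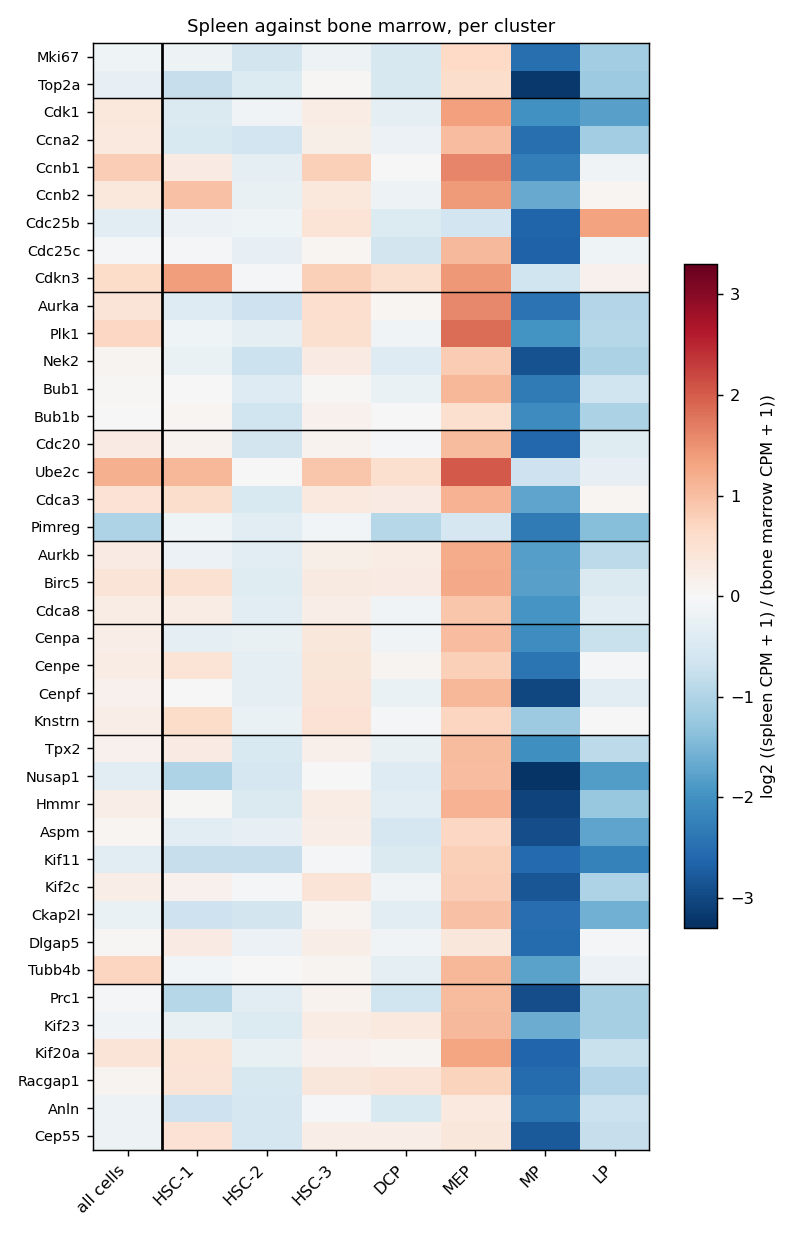
Log2 ratio of spleen over bone marrow (CPM plus 1) for each gene (rows, lines between the 8 role groups) over all cells and in each of 7 clusters, red for higher in spleen; genes under the 10 CPM filter in a cluster are shown too. The MEP column is red except for Cdc25b and Pimreg, and the MP column is blue throughout.

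MP was the mirror image. Of the 40 genes, 38 passed the filter, 0 were higher and 38 lower in spleen, where 8.03% of all measured genes were higher and 29.7% lower; the median log2 ratio was -2.41 for the members and -0.25 for all genes. Nusap1 was 10.3-fold lower (102 CPM in bone marrow, 9.96 CPM in spleen), Hmmr 9.44-fold (59.8 and 6.34 CPM) and Top2a 9.30-fold (297 and 31.9 CPM). Ube2c differed least among the members with 20 UMIs in both sums, with 172 and 107 CPM (1.62-fold, 1.37 to 1.89), followed by Knstrn (62.9 and 26.8 CPM) and Kif23 (165 and 52.8 CPM). Cdkn3 stood at 17.2 and 10.7 CPM.

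The MP comparison set 118 bone marrow cells against 1413 spleen cells. Another lineage's label, chiefly dendritic, was carried by 67.8% of the former and 99.6% of the latter, which left 38 and 6 cells without one; the 6 spleen cells held 12 member UMIs, and the ratio of sums was 0.125 (0.0645 to 0.220). The 5 dendritic markers summed to 24424 CPM in bone marrow and 56359 CPM in spleen, with 4 of 5 at least 1.5-fold higher, and Cd74 stood at 8073 and 19966 CPM. The part of these differences in the member values was not tested.

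In LP, 30 of the 40 genes passed, 1 was higher and 17 lower in spleen (8.9% and 10.7% of all genes). Kif11 was 5.30-fold lower (29.6 and 5.59 CPM), Nusap1 3.92-fold (31.8 and 8.13 CPM) and Cdk1 3.83-fold (24.7 and 6.43 CPM). The exception was Cdc25b, at 5.57 and 15.4 CPM (ratio 2.77, 1.79 to 4.39); Cdkn3 (6.96 and 7.79 CPM) and Cdca3 (19.3 and 20.3 CPM) had intervals that held 1. Another lineage's label was carried by 82.7% of spleen LP cells and 1.17% of bone marrow LP cells, and Trbc1, a T cell receptor gene, stood at 1757 and 13.5 CPM in that order. Among the cells without such a label (120 in spleen) the sum was 1.45-fold lower, 2 of 29 genes were higher and 14 lower (7.08% and 10.7% of all genes). The higher ones were Ccnb1 (1.81, 1.05 to 3.01) and Ccnb2 (1.77, 1.28 to 2.42), whose intervals over all LP cells held 1. Cdc25b then rested on 7 spleen UMIs, with a ratio of 1.22 whose interval held 1 (0.446 to 2.88).

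HSC-1, the cluster with the most bone marrow cells, shows how much the other labels matter. Over its 5049 bone marrow and 1539 spleen cells the ratio of sums was 0.989 (0.969 to 1.01); 29 genes passed, 4 were higher (4.96% of all genes) and 6 lower (5.48%). Cdkn3 had 6.51 and 18.4 CPM (2.83, 2.29 to 3.48), Ube2c 33.4 and 72.1 CPM (2.16, 1.96 to 2.38) and Ccnb2 27.1 and 54.3 CPM (2.003, 1.79 to 2.24). At the other end Nusap1 had 25.98 and 12.4 CPM, Prc1 34.04 and 17.4 CPM and Kif11 21.1 and 12.0 CPM.

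Without other lineages' labels, which 30.0% of the spleen HSC-1 cells carried, that pattern did not hold for the higher genes. The sum of HSC-1 then stood at 1134 and 771 CPM (ratio 0.68, 0.66 to 0.70), and of the 27 genes that passed, 0 were higher (1.63% of all genes) and 11 lower (2.17%). Ube2c had 33.3 and 22.3 CPM (0.668, 0.564 to 0.787). Ccnb2 (27.1 and 23.5 CPM) and Cdkn3 (6.52 and 5.50 CPM) had intervals that held 1. Nusap1 and Kif11 stayed lower, with 9.72 and 8.96 CPM in spleen. Spleen HSC-1 cells under a dendritic label (214 cells) had a sum of 2313 CPM, those under a mast cell label (147 cells) 401 CPM, and those under the multipotent progenitor label 576 CPM (831 cells) against 862 CPM in bone marrow (4330 cells).

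In HSC-2, 0 of the 35 genes that passed were higher in spleen (1.67% of all genes) and 7 lower (2.77%). The sum had a ratio of 0.768 (0.753 to 0.784) and 30 of 40 members had intervals below 1, a count without its share over all genes. Nek2 (12.1 and 6.98 CPM), Kif11 (44.1 and 25.8 CPM) and Aurka (14.5 and 8.67 CPM) were lowest in spleen relative to bone marrow. Ube2c (53.9 and 54.4 CPM), Tubb4b (179 and 179 CPM) and Cdkn3 (11.5 and 11.3 CPM) had the highest ratios, with intervals that held 1. Without other lineages' labels 0 were higher and 4 lower (1.47% and 2.52% of all genes).

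HSC-3 and DCP had the highest sums. In HSC-3, 40 genes passed, 3 were higher (5.77% of all genes) and 0 lower (8.77%): Ube2c with 142 and 269 CPM (1.90, 1.78 to 2.03), Cdkn3 with 24.1 and 42.2 CPM (1.75, 1.49 to 2.06) and Ccnb1 with 44.4 and 76.7 CPM (1.73, 1.53 to 1.94). Mki67 (1292 and 1141 CPM), Pimreg (69.5 and 64.9 CPM) and Kif11 (221 and 212 CPM) had the lowest ratios. Another lineage's label was carried by 42.8% of spleen HSC-3 cells; without them 1 gene was higher and 0 lower (4.38% and 7.06% of all genes), and the sum's ratio was 0.97 in place of 1.11. Ube2c then stood at 193 CPM in spleen (1.37, 1.26 to 1.49), Ccnb1 at 69.5 CPM (1.57, 1.36 to 1.81) and Cdkn3 at 27.6 CPM, with an interval that held 1.

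In DCP, 40 genes passed, 0 were higher (13.7% of all genes) and 3 lower (32.5%): Pimreg with 205 and 107 CPM, Prc1 with 415 and 265 CPM and Cdc25c with 89.2 and 58.4 CPM. Ube2c (716 and 1033 CPM) and Cdkn3 (138 and 199 CPM) again had the highest ratios, 1.44 (1.38 to 1.51) and 1.45 (1.29 to 1.61), followed by Racgap1 (180 and 244 CPM). The name of this cluster covers different cells in the 2 libraries: Cd74 stood at 8.69 CPM in bone marrow and 14141 CPM in spleen, and Hlf, a stem cell gene, at 450.2 and 36.6 CPM. Another lineage's label was carried by 84.8% of its spleen cells, which left 46 without one. Over those 46 cells, under the minimum of 100, the ratio of sums was 1.03 (1.00 to 1.05), and Pimreg (1.14, 0.947 to 1.36), Prc1 (1.03, 0.898 to 1.17) and Cdc25c (1.10, 0.825 to 1.44) were not lower in spleen.

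Levels over a cluster mix the share of cells that hold this RNA with the amount per cell, so cells were also counted at equal depth. After thinning to 3700 UMIs, 9081 bone marrow and 5874 spleen cells remained, and 25.4% (24.5 to 26.3) and 26.2% (25.1 to 27.4) of them had at least 10 member UMIs; as deposited, without thinning, the shares were 29.7% and 33.1%. This limit is a point on a range and not a cell type: 315 bone marrow and 229 spleen cells had 8 to 11 member UMIs. The share in MEP was 27.6% (22.8 to 32.9) in bone marrow and 64.8% (61.5 to 67.9) in spleen, and in MP 27.9% (19.5 to 37.5) and 3.29% (2.42 to 4.36). In HSC-1 it was 5.68% and 8.99%, in HSC-2 16.3% and 9.32%, and in LP 6.92% and 4.71%. In HSC-3 it was 97.1% and 95.0% and in DCP 100% and 98.7%. As the clusters were made from expression, possibly including these genes, shares this high in both tissues are a description and no separate finding. The spleen share without other lineages' labels was 32.0% over all cells, 64.8% in MEP, 4.42% (3.26 to 5.86) in HSC-1, 9.33% in HSC-2, 91.6% in HSC-3 and 8.40% (4.10 to 14.9) in LP. The bone marrow shares of HSC-1 and LP were then 5.68% and 6.83%, so HSC-1 and LP changed sides.

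**Figure D4:**
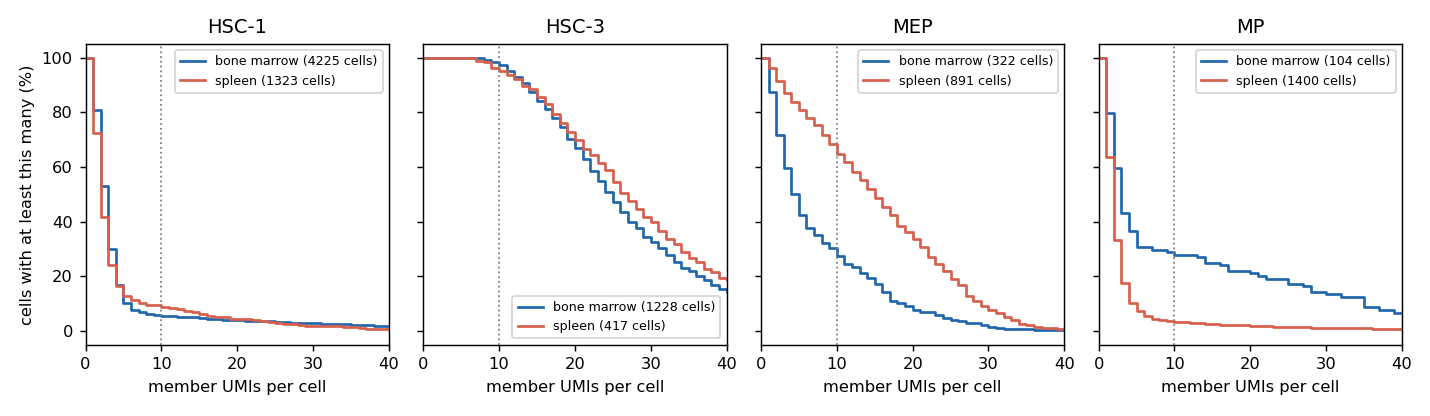
Percent of thinned cells with at least the number of member UMIs on the horizontal axis, in HSC-1, HSC-3, MEP and MP, for bone marrow (blue) and spleen (red); the dotted line marks 10 UMIs and the axis ends at 40. At the line the curves stand at 27.6% and 64.8% in MEP and at 27.9% and 3.29% in MP, while the HSC-3 curves run close together.

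Among the thinned cells with at least 10 UMIs of the other 39 members, the make-up of the mitotic RNA differed between clusters. Pimreg was near absent in MEP, with 0 UMIs in 88 bone marrow cells, which allows up to 9.21 CPM (3 counts of the total), and 8 UMIs in 577 spleen cells (3.75 CPM, 1.62 to 7.38). It stood at 216 CPM in bone marrow DCP cells and 117 CPM in spleen DCP cells (359 and 296 cells), and at 71.6 and 64.3 CPM in HSC-3. Cep55 in MEP had 6.07 CPM in bone marrow and 7.49 CPM in spleen, against 126 and 135 CPM in DCP. Cdc25b in MEP had 15.2 and 7.04 CPM, against 95.6 and 92.2 CPM in DCP. Against DCP, where each had its highest CPM, Pimreg, Cep55 and Cdc25b were thus low in MEP in both libraries, also with cells chosen by the other members. The bone marrow MEP values rest on few UMIs. Over all bone marrow cells without another lineage's label, Cdc25b stood at 6.19 CPM in MEP, 6.63 in HSC-1 and 22.4 in HSC-3. Cep55 stood at 5.24, 6.52 and 38.2 CPM in that order, so for these 2 a level particular to MEP is not shown.

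Ube2c in these cells stood higher in spleen in HSC-3 (147 and 274 CPM), DCP (687 and 955 CPM) and MEP (172 and 339 CPM), each with intervals that did not overlap. In LP it ran the other way, with 405 CPM in 49 bone marrow cells and 186 CPM in 29 spleen cells. Cdkn3 had 134.8 and 215 CPM in DCP and 24.0 and 48.6 CPM in HSC-3. Ccnb1 had 39.5 and 78.7 CPM in HSC-3 but 268 and 289 CPM in DCP, where the intervals overlapped. Tubb4b was higher in spleen in MEP (439 and 746 CPM) and lower in HSC-1 (389 and 198 CPM), so its direction was not shared between clusters. Without other lineages' labels, the intervals of Ube2c stayed apart in MEP (172 and 336 CPM) and overlapped in HSC-3 (146 and 183 CPM) and DCP (689 and 787 CPM). Those of Ccnb1 in HSC-3 stayed apart (39.1 and 71.9 CPM). The intervals of Cdkn3 in HSC-3 and DCP, of Tubb4b in HSC-1 and of Pimreg in DCP (214 and 241 CPM) overlapped.

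**Figure D5:**
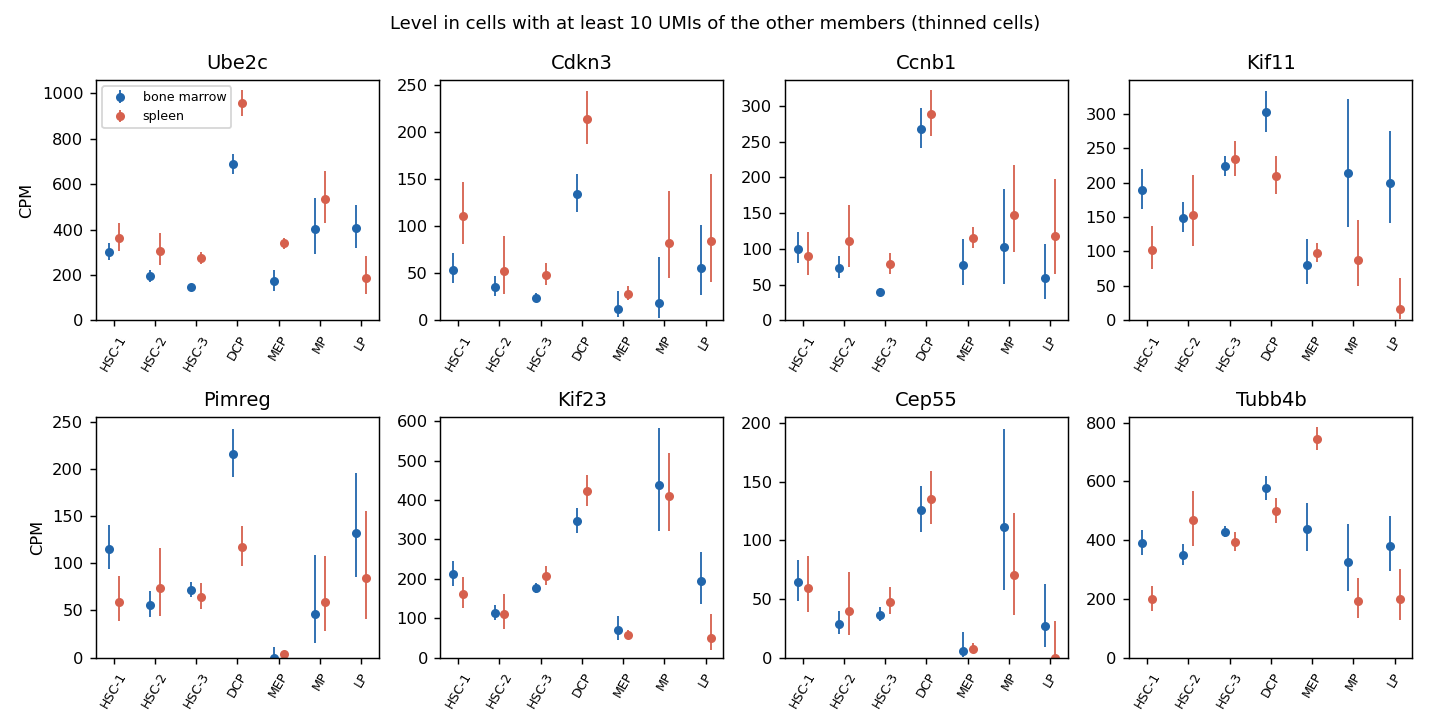
CPM of 8 genes (linear axes from 0) in thinned cells with at least 10 UMIs of the other members, per cluster, bone marrow in blue and spleen in red, with exact 95% counting intervals. Pimreg and Cep55 lie near 0 in MEP in both libraries, and Ube2c is higher in spleen in HSC-3, DCP and MEP.

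A few members were also read in cells with at most 1 UMI of the other members. Over all such cells Tubb4b stood at 92.2 CPM in bone marrow and 73.3 CPM in spleen, Cenpa at 73.2 and 29.4 CPM and Kif23 at 40.7 and 37.4 CPM. These cells held 20.3% and 17.8% of the thinned UMIs of Tubb4b, 19.7% and 9.81% of those of Cenpa and 18.9% and 22.9% of those of Kif23. Kif23 reached 150.2 CPM in 99 such MCP cells of the spleen (113 to 195), a cluster that the mast cell gene Cma1 marks (8549 CPM). Ube2c stood at 67.7 CPM in 1050 such spleen MP cells and at 6.57 CPM in 2017 such bone marrow HSC-1 cells. Pimreg, Cep55 and Cdc25c had 1.41 CPM or less in these cells over each library. The share of free RNA in the droplets was not estimated, so these UMIs cannot be assigned to the cells that carried them.

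Across the 15 sums of tissue and cluster with at least 100 cells, the members ran together, as a description with no test. On the log2 scale, Tpx2 followed the sum of the other members most closely (Pearson r = 0.994), then Hmmr and Birc5. Kif23 (0.677), Pimreg (0.807), Cdc25b (0.809), Cdkn3 (0.863) and Ube2c (0.874) followed it least. Genes among these were set apart above from the same sums, so their low r is no separate support. Nusap1 (0.977), Kif11 (0.970) and Cep55 (0.921), also named above, followed the sum more closely. Among 6538 genes outside the set, the 10 most like its sum were Kif22 (0.993), Dbf4, Kif4, Kif20b, Sgo2a, Depdc1a, Hmgb2, Tacc3, Ccnf and Cdca2 (0.979). Kif22, a chromosome motor, had 24.5 CPM in bone marrow MEP and 55.4 CPM in spleen MEP. The 15 sums share 2 libraries and cells with like depth, so the coefficients carry no p.

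A wider list of 110 other mitotic genes, from kinetochores, checkpoint, APC/C, condensin and cohesin, spindle, entry kinases and regulators, was compared in the same way. Over all cells 102 were measured, 4 higher and 4 lower in spleen (10.8% and 18.3% of all genes), with a median log2 ratio of -0.17. Of 103 measured without other lineages' labels, 7 were higher and 2 lower, Iqgap3 and Rbl2 (14.4% and 23.7% of all genes), with a median of 0.01. Those 7 were Cenpw, Trip13, Anapc15, Cks1b, Cks2, Mybl2 and E2f4. The 4 higher ones over all cells held Anapc15, an APC/C subunit (28.4 and 52.4 CPM), and E2f4 (36.2 and 68.7 CPM). The others were the Cdk-binding proteins Cks2 (149 and 235 CPM) and Cks1b (119 and 182 CPM). The 4 lower ones over all cells held Hjurp, the Cenpa chaperone (167 and 99.7 CPM), and the kinase Pbk (45.2 and 26.8 CPM). The others were Iqgap3 (14.8 and 9.33 CPM) and the pocket protein Rbl2 (82.8 and 41.7 CPM). The regulator Foxm1 had 16.8 and 12.9 CPM over all cells, and Mybl2, which encodes B-Myb, 16.2 and 19.8 CPM.

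In MEP 102 of the 110 were measured, 41 higher and 2 lower in spleen (7.46% and 13.5% of all genes), with a median log2 ratio of 0.50, below the members' 1.04. Kif14 (log2 ratio 1.26), Ccnf (1.18) and Ska1 (1.05) led their groups; Foxm1 had 8.10 and 12.6 CPM and Mybl2 27.4 and 38.4 CPM. In MP, 87 were measured, 2 higher and 69 lower (8.03% and 29.7% of all genes), among them Foxm1 with 21.3 and 2.004 CPM; Anapc10 and E2f4 lay on the other side, at log2 ratios of 0.73 and 0.20. In HSC-1 66 were measured, 1 higher and 4 lower (4.96% and 5.48% of all genes). Without other lineages' labels the counts were 42 and 2 in MEP (7.65% and 13.7%) and 0 and 4 in HSC-1 (1.63% and 2.17%).

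The 27 genes of DNA replication and S phase, which act earlier in the cycle, followed the mitotic set only in part. In MEP their sum was 1.20-fold higher in spleen where the mitotic sum was 1.99-fold higher, so the mitotic sum was 0.877 times the S phase sum in bone marrow and 1.46 times in spleen. In MP the S phase sum had a ratio of 0.288, near the 0.216 of the mitotic sum. In HSC-1 it had 0.804 against 0.989, and without other lineages' labels 0.91 against 0.68, so the order of the sums changed; in MEP it then had 1.20 against 1.9999. In DCP the mitotic sum was 14.6 times the S phase sum in bone marrow and 23.8 times in spleen, the largest of the 7 clusters compared in each library; over the 46 spleen cells without another label it was 18.7 times.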

How the data were processed

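The deposited tables hold counts: UMI counts per gene (31053 Ensembl identifiers) and cell, whole numbers that the authors did not normalize. Per the series' design text they were made with Cell Ranger 3.1.0 on mm10; the submitters' processing notes list Seurat 3.1.5 and mm9, which conflicts, and the kit is named as version 3 in the design text and 3.1 in the labels' protocol. How cells were filtered and doublets treated is not given in the sources used here; no doublet caller was run and every deposited cell was kept. Clusters and reference labels are those of the deposited cell table. GENCODE M21 gave symbols for 30934 identifiers.

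UMIs were summed over the cells of a tissue, or of a cluster within it, and scaled to CPM. Ratios have exact intervals for a pair of Poisson counts, and shares of cells Clopper-Pearson intervals, at 95%. Log2 ratios used CPM plus 1. Genes needed a mean of 10 CPM, clusters 100 cells per library. Since each tissue had 1 library, nothing was tested. Cells were thinned at random to 3700 UMIs, which left out 1007 bone marrow and 672 spleen cells. TMM factors came from edgeR 4.0.16 (R 4.3.3); other steps used Python 3.11.15 with numpy 2.4.6, scipy 1.17.1 and pandas 2.3.3, and were tested on simulated counts. The members and lists were chosen with earlier results of these data known. Named genes are the 40 members, in each cluster the 3 highest and 3 lowest ratios among members with 20 UMIs in both sums, the ends of each other list, the 10 genes most like the summed members, and marker and regulator genes. Cks1b, and the members described in cells with many or few other member UMIs, were picked after values were seen. A deposited table of integrated, scaled values was not used.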

Additional observations from a re-analysis of the deposited data

Results flagged for a closer look

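The summed level of the 40 genes differed between the tissues by more than 1.5-fold in opposite directions in different clusters. The ratio of spleen over bone marrow was 1.99 in MEP, 0.216 in MP and 0.602 in LP. Under an alternative, MEP and LP no longer passed 1.5-fold: MEP had 1.41 with erythroid labels weighted alike, and LP had 0.692 without other lineages' labels, which 82.7% of its spleen cells carried. With 1 library per tissue, the difference between these clusters was not tested. The cells under each name differed in other measures too: the median was 11230 and 36084 UMIs per cell in MEP, and the 5 dendritic markers summed to 24424 and 56359 CPM in MP (bone marrow and spleen in that order). Their part in the ratios was not tested.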

How the results depend on the processing

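The count of higher members (5) was 9 under TMM scaling and 2 with each cell weighted alike, after thinning, with clusters weighted to the same composition, or without MEP cells. The count of lower members (1) was 4 without other lineages' labels and 0 without MEP cells. The ratio of the all-cell sum (1.12) was 1.29 under TMM, 1.21 centred on the median gene and 1.21 without other labels, but 0.92 with each cell weighted alike, 0.95 thinned, 0.91 composition-matched and 0.90 without MEP cells. With each cell weighted alike the cluster ratios were 0.94 (HSC-1), 0.72 (HSC-2), 0.87 (DCP) and 2.06 (MEP); thinned, 0.74 (HSC-2), 0.87 (DCP), 2.17 (MEP) and 0.21 (MP); and without other labels, 0.68 (HSC-1), 0.80 (HSC-2), 0.97 (HSC-3), 0.69 (LP), 1.03 (DCP) and 0.125 (MP), the last pair with 46 and 6 spleen cells. MEP gave 1.41 with erythroid labels weighted alike. Bone marrow and spleen shares of cells were 33.0% and 33.2% at a limit of 5 UMIs, 17.3% and 17.3% at 20, and 29.7% and 33.1% without thinning; the spleen share was 32.0% without other labels. Tubb4b over all cells went to -0.30 without MEP cells. Of 360 member log2 values under an alternative, 282 kept their sign and 78 changed it. Adding 0.1 CPM in place of 1, or dropping the filter on low genes, left every CPM as it was. Those values were counted among the 360 but could not change sign. Of the 40 members, 17 changed side with composition matched, 16 with each cell weighted alike and 15 without MEP cells, but 3 centred on the median gene. MEP and erythroid-label alternatives were chosen after seeing the data; causes were not tested.

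No paired analysis was possible because each tissue has 1 library; for the same reason no library was left out. Depth limits members with few UMIs in MP, LP and MEP.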
